A study of Mus musculus with 4 samples.

Results

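Wnt pathway genes were followed across RNA-seq libraries of mouse mammary basal cells. The members are 44 genes taken by symbol from lists of Wnt ligands, receptors, inhibitors, R-spondins, intracellular components and target genes, out of 17630 genes in the deposited data. All 44 were found by their NCBI Gene numbers. The members were grouped into 9 roles: ligands, Frizzled receptors, co-receptors, ligand maturation, secreted inhibitors, membrane inhibitors, R-spondins, intracellular components with feedback inhibitors, and TCF/LEF with target transcription factors.

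The study asked how sympathetic nerves act on mammary basal cells, which surround the luminal layer of the duct and include the mammary stem cells. It has 4 libraries from wild-type mice (WT in the labels), 1 per condition: basal cells sorted from control mice with no treatment, basal cells sorted from mice given 6-hydroxydopamine (6-OHDA), colonies with no treatment, and colonies treated with salbutamol and phenylephrine (SP). 6-OHDA is a toxin taken up by sympathetic nerves, whose endings it destroys. Salbutamol activates β2 and phenylephrine α1 adrenergic receptors, and colonies were grown from such cells inside Matrigel, a basement membrane gel. Without replicates no test between conditions was possible and every difference is one between single libraries. The labels give neither the age of the mice nor how many animals were pooled. They name all 4 samples primary mammary basal cells, and the colonies are known as such from the design text and the titles. The title of the SP library carries the number 200 without a unit.

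Wnt proteins are lipid-modified ligands that act over short distances. They bind a Frizzled receptor together with the co-receptor Lrp5 or Lrp6, which stops the Axin complex from sending β-catenin to degradation, so that β-catenin enters the nucleus and acts with TCF/LEF factors on target genes. Other Wnt proteins act without β-catenin, and in the mammary gland Wnt signaling is known for maintaining basal stem cells and for the branching of ducts.

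Expression was deposited as FPKM, the number of fragments per kilobase of transcript scaled to the size of the library. The unit corrects for length, so levels of different genes can be set side by side. The values summed to 508071 in sorted control cells, 517504 in sorted 6-OHDA cells, 577631 in control colonies and 588202 in SP colonies. Read counts were not analysed here. From the steps between low values of genes with a single transcript, 1 FPKM on 1 kilobase stood for roughly 16.5 to 17.95 fragments in the 4 libraries at an assumed fragment length of 250 bases. Depth was therefore similar, and this rough estimate gives no interval for single genes. Genes were compared where the mean FPKM of the libraries in question was at least 1. Differences were taken on log2(FPKM + 1), which understates changes of low genes. A gene was called higher or lower with a treatment when this difference was over 0.3 in size, and over 1 between the control colonies and the sorted control cells.

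Basal markers were abundant in every library. The 12 basal markers summed to 10573 FPKM in sorted control cells, 9593 in sorted 6-OHDA cells, 6945 in control colonies and 14894 in SP colonies, with Krt14 as the most abundant gene in each. In control colonies 5 of the 12 were lower by more than 1 in log2 difference than in sorted control cells, 0 were higher and 7 were within, where 13.2% of all genes were lower and 30.7% higher. Myh11, the smooth muscle myosin heavy chain, was at 467 FPKM in sorted control cells and 11.2 in control colonies. Elf5, a luminal transcription factor, was at 0.63 FPKM in sorted control cells and 22.5 in control colonies. The 15 luminal markers, led by Krt8, summed to 1256, 1146, 2293 and 2308 FPKM in the same order of libraries. With 6-OHDA, 5 of the 14 luminal markers compared were lower and 3 higher, where 8.35% and 15.8% of all genes were. Between the controls, 7 of 15 were higher in the colonies by more than 1 and 0 lower. Although the colony sums were close, 7 of 15 were lower with SP, where 19.8% of all genes were, and 1 was higher, Ly6a, from 50.4 to 266 FPKM. None of the basal or luminal markers was at 0 in any library.

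Markers of other cells also moved with the conditions. The 12 fibroblast markers summed to 226 FPKM in sorted control cells and 436 in sorted 6-OHDA cells, where 8 of 12 were higher and 0 lower, with Dcn the most abundant, and where 15.8% of all genes were higher and 8.35% lower. They summed to 47.8 FPKM in control colonies and 31.1 in SP colonies, where Dpt, Fap and Pi16 were at 0. The 10 endothelial markers summed to 325 and 327 FPKM in the sorted cells and to 18.8 and 12.3 FPKM in the control and SP colonies. Pecam1, which encodes CD31, was at 107 and 93.0 FPKM in the sorted cells although CD31 was among the lineage markers the sort removed. The 7 adipocyte markers were almost all Fabp4, which capillaries also express, and summed to 212, 377, 38.3 and 1.13 FPKM. Fewer cells of a type and less RNA per cell cannot be told apart in such bulk samples.

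The other marker lists differed between the libraries as well. The 7 pericyte markers summed to 41.1, 50.0, 24.8 and 18.7 FPKM, led by Rgs5 in the sorted cells and Notch3 in the colonies. The 10 leukocyte markers summed to 13.3, 11.8, 3.37 and 4.67 FPKM, and Ptprc, the CD45 gene, was at 0 in both colony libraries. The 6 nerve and Schwann cell markers in the files summed to 63.5, 77.8, 12.3 and 35.4 FPKM, led by Sox10 except in SP colonies, where Tubb3 led. Cornified keratinocyte markers, 9 in number, summed to 22.6, 32.0, 98.1 and 740 FPKM, and Krtdap alone was at 528 FPKM in SP colonies. The 14 salivary gland secretory genes in the files summed to 16307 FPKM, 3.15% of the total, in the 6-OHDA library, with Bpifa2 at 7277 FPKM, and to at most 2.94 FPKM elsewhere. Member differences were recomputed after rescaling the libraries without these salivary gland genes. Whether RNA of such cells, or of those behind the other marker lists, contributed to the differences described here was not tested.

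Most but not all members reached 1 FPKM in at least 1 library. Wnt3, Dkk2, Rspo1, Rspo3, Lef1 and Sp5, 6 of 44, were below 1 FPKM in all 4 libraries. β-catenin (Ctnnb1) was the most abundant member in each library. Wnt11 followed it in the sorted cells and Nkd2 in the colonies. In all, 30 of the 36 members compared in at least 1 of the 3 comparisons were called in at least 1, or 83.3%, where 63.5% of the 12811 genes so compared were. The other 14 members were called in none.

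In sorted cells from 6-OHDA-treated mice, the Wnt ligands with the highest levels in sorted control cells were lower. Wnt11, Wnt5b, Wnt9a, Wnt10a and Wnt7b were lower, as were the receptors Fzd8 and Fzd9 and the intracellular inhibitors Axin1 and Nkd1. Wnt6 and the receptor Fzd7 were higher. Of 35 members compared, 2 were higher, where 15.8% of all 11749 genes compared were, and 9 were lower, where 8.35% of all genes were. The median difference was -0.09 over the members and 0.06 over all genes. Among all genes, 65.4% of those called were higher as deposited and 50.5% after scaling by the median ratio. No member was over 1 in size, where 1.05% of all genes were higher and 0.902% lower. With a pseudocount of 5, Wnt5b and Wnt11 were the only members still called.

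Among members compared in colonies treated with SP, 3 of 4 secreted Wnt inhibitors and 4 of 9 Frizzled receptors were lower. So were 2 of 3 TCF/LEF factors, and the ligands split. The 2 secreted inhibitors compared from outside the member list, Sostdc1 and Dkkl1, were higher. Sfrp2 had the largest fall of the members, from 29.0 to 5.56 FPKM, 5.21-fold lower, followed by Fzd9 and Wnt5b. Wnt5a, Wnt10a, Wnt11, Porcn, Dkk3 and Ctnnb1 were higher. Of 34 members compared, 6 were higher, where 11.7% of all 11849 genes compared were, and 14 were lower, where 19.8% of all genes were. The median difference was -0.20 over the members and -0.07 over all genes. Among all genes, 37.1% of those called were higher as deposited and 49.9% after scaling by the median ratio. At a threshold of 1, 3 members were lower and 0 higher, where 1.33% and 2% of all genes were. Calls were kept by 16 of 20 members under the other pseudocounts and scalings, the exceptions being Fzd4, Rnf43 and Nkd1 with a pseudocount of 5 and Ctnnb1 after quantile normalization.

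**Figure D1:**
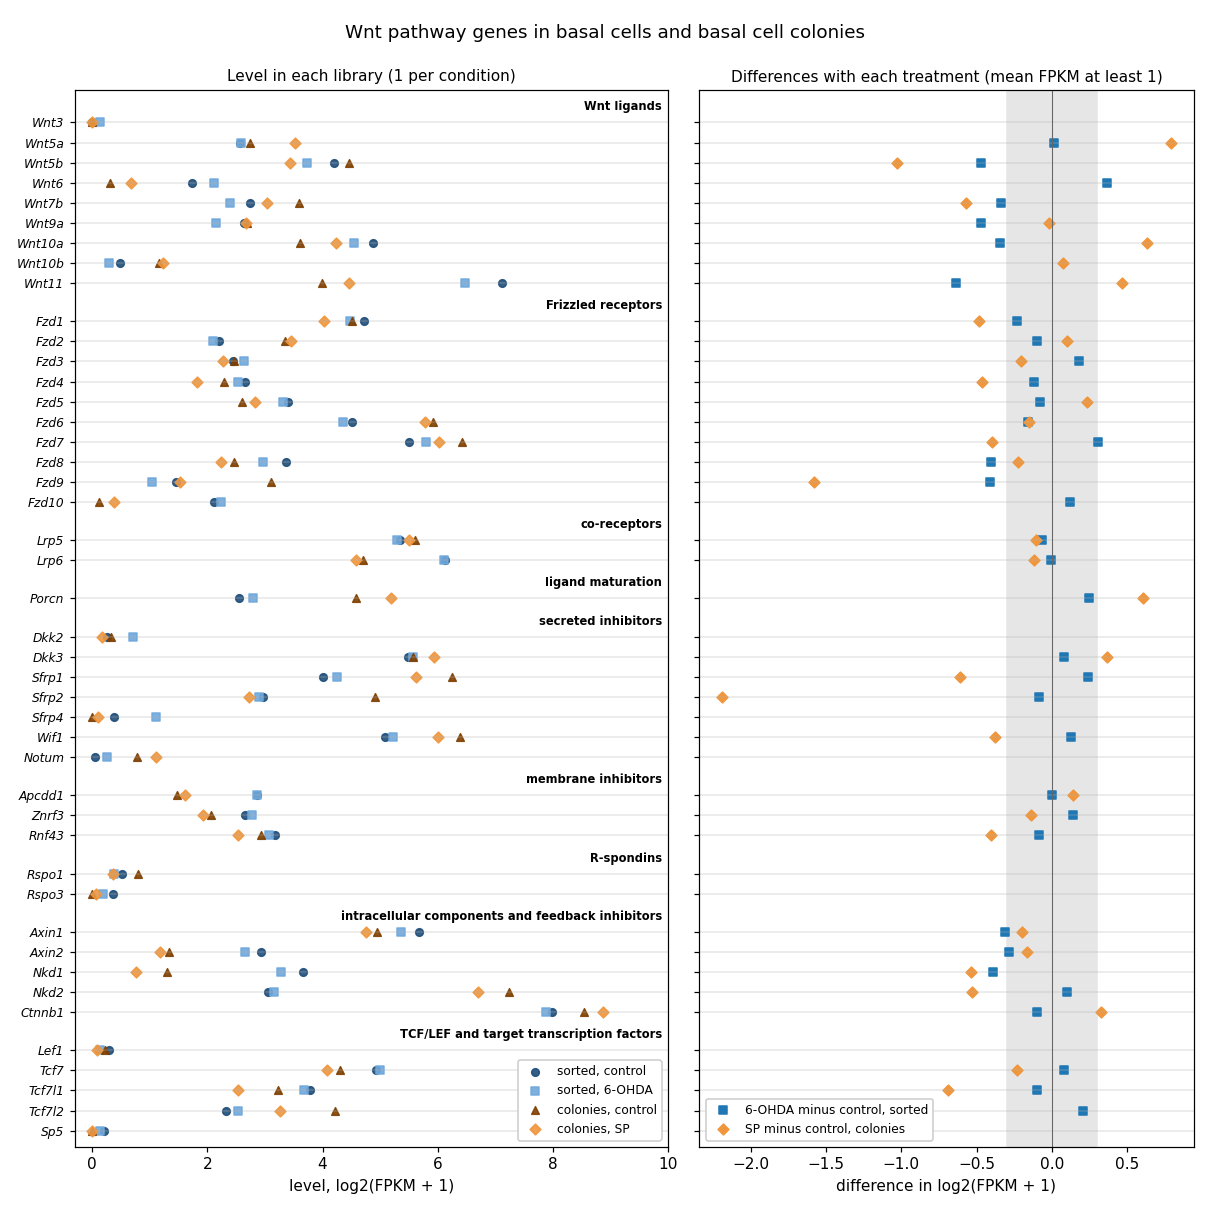
Left, the level of each of the 44 Wnt pathway genes as log2(FPKM + 1) in each of the 4 libraries, grouped by role. Right, the difference with 6-OHDA in sorted cells and with SP in colonies for genes averaging at least 1 FPKM, where the grey band spans differences of at most 0.3 in size and Sfrp2 lies farthest out, at -2.19 with SP.

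Control colonies and sorted control cells differed far more than either treatment and its control. Nkd2, Sfrp1, Porcn, Sfrp2, Tcf7l2, Fzd9, Fzd6, Wif1 and Fzd2 were higher in the colonies. Wnt11, Nkd1, Fzd10, Axin2, Wnt6, Lrp6, Apcdd1 and Wnt10a were lower. Of 35 members compared, 9 were higher by more than 1, where 30.7% of all 12244 genes compared were, and 8 were lower, where 13.2% of all genes were. The median difference was 0.02 over the members but 0.45 over all genes, a shift that scaling by the median ratio removes. Relative to that shift, 6 members were higher, where 17.7% of all genes were, and 13 lower, where 20.8% were, with a median of -0.41 over the members. Among all genes the share of calls that were higher went from 69.9% to 46%. At a threshold of 0.3 as deposited, 12 members were higher and 15 lower, where 55.7% and 26.6% of all genes were. After the scaling, Fzd2, Fzd6 and Wif1 were within the threshold, at 0.72, 0.92 and 0.80 in log2 difference. Fzd5, Fzd8, Axin1, Tcf7 and Tcf7l1 were then lower, at -1.24, -1.34, -1.21, -1.11 and -1.02. With a pseudocount of 5, Fzd10, Axin2, Wnt6 and Apcdd1 were within the threshold, at -0.71, -0.84, -0.49 and -0.74, as were Fzd9 and Fzd2, at 0.90 and 0.72. This comparison shares a control library with each treatment comparison, and culture, medium, animals and the mix of cells cannot be told apart in it. Luminal markers summed to 1256 FPKM in sorted control cells and 2293 in control colonies. Endothelial markers summed to 325 and 18.8 FPKM and fibroblast markers to 226 and 47.8 FPKM in the same order.

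**Figure D2:**
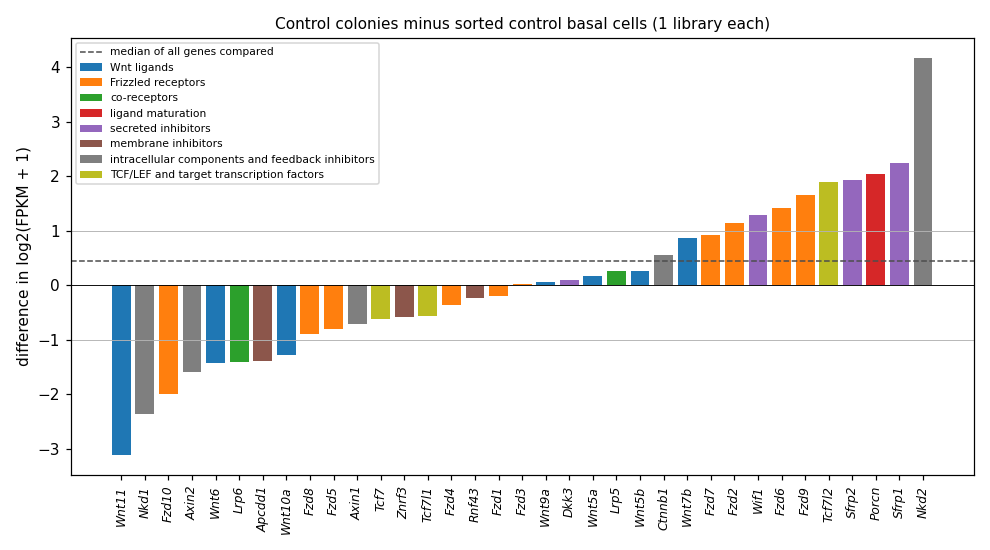
Difference in log2(FPKM + 1) between control colonies and sorted control cells for the 35 members compared, 1 library each, in order of size and colored by role. Nkd2 is the highest bar at 4.18 and Wnt11 the lowest at -3.12, and the dashed line marks the median of all genes compared, 0.45.

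Among the ligands, Wnt11, which can act without β-catenin, had by far the highest level in the sorted cells. Wnt11 (NCBI Gene 22411, chr7:98835084-98854747 in GRCm38.p6) was at 138 FPKM in sorted control cells, 88.4 in sorted 6-OHDA cells, 15.0 in control colonies and 21.0 in SP colonies. It was thus high in both sorted libraries and low in both colony libraries. The log2 difference was -0.64 with 6-OHDA, 1.56-fold lower, and 0.47 with SP. Between the controls it was -3.12, or -3.61 relative to the median gene.

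Wnt10a, a ligand that signals through β-catenin, followed the same order. Its level was 28.5 FPKM in sorted control cells, 22.2 in sorted 6-OHDA cells, 11.1 in control colonies and 17.8 in SP colonies. The log2 difference was -0.34 with 6-OHDA, 0.63 with SP and -1.28 between the controls, or -1.76 relative to the median gene. Wnt10a and Wnt11 were the members that were lower with 6-OHDA and higher with SP.

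Wnt5b and Wnt7b were lower with both treatments. Wnt5b, a mostly non-canonical ligand (NCBI Gene 22419, chr6:119432531-119544824), was at 17.4 FPKM in sorted control cells, 12.3 in sorted 6-OHDA cells, 21.1 in control colonies and 9.83 in SP colonies. Both control libraries lay above both treated ones, with log2 differences of -0.47 with 6-OHDA and -1.03 with SP. Wnt7b was at 5.64 FPKM in sorted control cells, 4.26 in sorted 6-OHDA cells, 11.1 in control colonies and 7.15 in SP colonies. Its levels were highest in the control colonies, and the log2 difference was -0.34 with 6-OHDA and -0.57 with SP.

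Wnt5a, the best known non-canonical ligand, was at 4.90 FPKM in sorted control cells, 4.96 in sorted 6-OHDA cells, 5.65 in control colonies and 10.5 in SP colonies. Only the SP library stood apart, with a log2 difference of 0.79. Wnt9a was at 5.18 FPKM in sorted control cells, 3.45 in sorted 6-OHDA cells, 5.42 in control colonies and 5.33 in SP colonies. Here the 6-OHDA library was the low one, with a log2 difference of -0.47, and the colonies differed by -0.02.

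Wnt6 was a ligand of the sorted cells, at 2.34 FPKM in sorted control cells, 3.31 in sorted 6-OHDA cells, 0.24 in control colonies and 0.60 in SP colonies. The log2 difference was 0.37 with 6-OHDA and -1.43 between the controls, or -1.66 relative to the median gene. Between the controls it passed the filter only through the sorted cells, and the difference was -0.49, within the threshold, with a pseudocount of 5. With values this low the calls rest on roughly 73 and 100 fragments in the sorted cells and 8 and 20 in the colonies. Wnt10b ranged from 0.22 to 1.35 FPKM and was compared in the colonies alone, at a log2 difference of 0.08. Wnt3 was at 0.10 FPKM in sorted 6-OHDA cells and listed at 0 in the other libraries.

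Of the 7 ligands compared with 6-OHDA, 5 were lower, where 8.35% of all genes were, and 1 higher, where 15.8% were, with a median of -0.34 over the ligands. The 5 lower calls held under each rescaling of the libraries, and 2 were left with a pseudocount of 5. Of all genes, 9.59% were lower after rescaling to the same sum, 11.5% after scaling by the median ratio and 11.8% after quantile normalization. With SP, 3 of 7 ligands were higher and 2 lower, where 11.7% and 19.8% of all genes were. Summed over all 9 ligands, the level was 202 FPKM in sorted control cells, 139 in sorted 6-OHDA cells, 70.8 in control colonies and 73.6 in SP colonies, and Wnt11 made up most of the difference between the first of these and the others.

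Frizzled proteins are the receptors that bind Wnt ligands. Fzd7, a receptor linked to mammary stem cells, was the most abundant of the 10 in every library, at 44.2 FPKM in sorted control cells, 54.8 in sorted 6-OHDA cells, 84.7 in control colonies and 63.9 in SP colonies. Control colonies held most as deposited, but the log2 difference between the controls, 0.92, was within the threshold and came to 0.43 relative to the median gene. The log2 difference was 0.31 with 6-OHDA and -0.40 with SP. The call with 6-OHDA lies at the threshold and was lost, at 0.25, after scaling by the median ratio.

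Fzd9 was lower with both treatments and had the largest Frizzled difference with SP. Its level was 1.73 FPKM in sorted control cells, 1.05 in sorted 6-OHDA cells, 7.60 in control colonies and 1.88 in SP colonies. The control colonies stood above the other libraries, which were all under 2 FPKM. The log2 difference was -0.41 with 6-OHDA, -1.58 with SP and 1.66 between the controls, or 1.27 relative to the median gene. Roughly 35 to 273 fragments per library stand behind these values.

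Fzd1 was at 25.3 FPKM in sorted control cells, 21.4 in sorted 6-OHDA cells, 21.8 in control colonies and 15.3 in SP colonies, so that the SP library was lowest, at a log2 difference of -0.48 from its control. Fzd4, a receptor for Norrin as well as for Wnt, was at 5.31, 4.80, 3.88 and 2.53 FPKM in the same order and likewise lowest with SP, at -0.47. Fzd8 was at 9.29, 6.78, 4.51 and 3.72 FPKM. It was highest in sorted control cells, with a log2 difference of -0.40 with 6-OHDA.

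Between the controls, 3 other receptors were called as deposited. Fzd6, which takes part in planar polarity, was at 21.9 FPKM in sorted control cells, 19.6 in sorted 6-OHDA cells, 59.8 in control colonies and 53.7 in SP colonies, and Fzd2 at 3.60, 3.30, 9.19 and 9.93 FPKM. Both were high in both colony libraries, with log2 differences between the controls of 1.41 and 1.15 as deposited, but 0.92 and 0.72, within the threshold, relative to the median gene. Fzd10 went the other way, at 3.32 and 3.69 FPKM in the sorted cells and 0.08 and 0.30 FPKM in control and SP colonies, with a log2 difference of -2.00 between the controls. It passed the filter only through the sorted cells, the value in control colonies rests on roughly 4 fragments, and the difference ranged from -4.25 with a pseudocount of 0.1 to -0.71, within the threshold, with a pseudocount of 5. Fzd3 ranged from 3.80 to 5.18 FPKM and Fzd5 from 5.05 to 9.53 FPKM, and neither was called as deposited. With 6-OHDA 1 of 10 receptors was higher and 2 lower, where 15.8% and 8.35% of all genes were. With SP 0 of 9 were higher and 4 lower, where 11.7% and 19.8% of all genes were. After quantile normalization Fzd5 was also called higher with SP, at 0.31.

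The co-receptors hardly differed with treatment. Lrp6 was at 68.5 FPKM in sorted control cells, 68.3 in sorted 6-OHDA cells, 25.1 in control colonies and 23.0 in SP colonies. It was high in both sorted libraries and low in both colony libraries, with a log2 difference of -1.41 between the controls, or -1.91 relative to the median gene. Lrp5 was at 39.8, 38.0, 47.9 and 44.3 FPKM in the same order and was not called. So Lrp6 was the more abundant co-receptor in the sorted cells and Lrp5 in the colonies.

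Porcn encodes the enzyme of the endoplasmic reticulum that attaches the lipid to Wnt proteins. It was at 4.85 FPKM in sorted control cells, 5.93 in sorted 6-OHDA cells, 22.9 in control colonies and 35.3 in SP colonies. The levels were thus ordered by culture and then by SP, with log2 differences of 2.03 between the controls, 1.58 relative to the median gene, and 0.60 with SP. The log2 difference with 6-OHDA was 0.24.

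The secreted inhibitors bind Wnt ligands or their receptors outside the cell. Sfrp2, a secreted Frizzled-related protein that binds Wnt ligands (NCBI Gene 20319, chr3:83765750-83774314), was at 6.85 FPKM in sorted control cells, 6.40 in sorted 6-OHDA cells, 29.0 in control colonies and 5.56 in SP colonies. Control colonies alone were high, and the other libraries lay within a narrow range. The log2 difference was -2.19 with SP and 1.93 between the controls, or 1.46 relative to the median gene. Since both rest on the same control colonies, they are not independent.

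Sfrp1, a related protein, was at 15.1 FPKM in sorted control cells, 18.0 in sorted 6-OHDA cells, 74.6 in control colonies and 48.5 in SP colonies. Wif1, which also binds Wnt ligands, was at 33.1, 36.2, 82.6 and 63.2 FPKM in the same order. Both were higher in the colonies than in the sorted cells, and within the colonies lower with SP. The log2 difference with SP was -0.61 for Sfrp1 and -0.38 for Wif1, and between the controls 2.23 and 1.29 as deposited.

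Dkk3, a member of the Dickkopf family whose action on Wnt signaling is debated, was at 43.8 FPKM in sorted control cells, 46.3 in sorted 6-OHDA cells, 46.6 in control colonies and 60.5 in SP colonies. The SP library was highest, at a log2 difference of 0.37 from its control. Dkk2, Sfrp4 and Notum, which encodes an enzyme that removes the lipid from Wnt proteins, passed the filter in none of the comparisons. Dkk2 ranged from 0.13 to 0.64 FPKM. Sfrp4 was listed at 0 in control colonies and at 1.14 FPKM in sorted 6-OHDA cells, and Notum ranged from 0.03 FPKM in sorted control cells to 1.14 FPKM in SP colonies. With SP, 3 of 4 secreted inhibitors were lower and 1 higher under every scaling, where 19.8% and 11.7% of all genes were as deposited. With 6-OHDA 0 of 4 were called, where 15.8% of all genes were higher and 8.35% lower. Among other genes of the pathway, 2 of 3 secreted inhibitors compared with 6-OHDA were lower, Dkkl1 at a log2 difference of -0.65 and Sostdc1 at -0.32, but within the threshold with a pseudocount of 5, at -0.24 and -0.20. Sostdc1 and Dkkl1 were also the 2 compared with SP and both were higher, from 94.4 to 122 FPKM for Sostdc1 and from 1.09 to 1.63 FPKM for Dkkl1, at log2 differences of 0.37 and 0.33. That of Dkkl1 became 0.12 with a pseudocount of 5.

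Membrane inhibitors and R-spondins set how much receptor stays at the cell surface. Rnf43 and Znrf3 encode ubiquitin ligases that remove Frizzled receptors, and R-spondins block these ligases. Rnf43 was at 7.98 FPKM in sorted control cells, 7.44 in sorted 6-OHDA cells, 6.62 in control colonies and 4.76 in SP colonies, lowest with SP at a log2 difference of -0.40. Znrf3 ranged from 2.81 to 5.87 FPKM and was not called as deposited. Apcdd1, a membrane protein that binds Wnt ligands and Lrp5, was at 6.26, 6.27, 1.76 and 2.04 FPKM. Its levels were nearly equal in the sorted libraries and low in the colonies, with a log2 difference of -1.40 between the controls, or -1.77 relative to the median gene. Rspo1, the more abundant R-spondin, was at 0.43, 0.30, 0.73 and 0.28 FPKM in the same order, and Rspo3 reached at most 0.29 FPKM.

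Inside the cell, Ctnnb1 was at 252 FPKM in sorted control cells, 236 in sorted 6-OHDA cells, 373 in control colonies and 468 in SP colonies. SP colonies held most, with a log2 difference of 0.33 with SP. Between the controls the log2 difference was 0.56, within the threshold, and 0.05 relative to the median gene. Axin1, the scaffold on which β-catenin is marked for degradation, was at 50.0, 40.0, 30.0 and 26.0 FPKM in the same order. Sorted control cells held most, and the log2 difference was -0.31 with 6-OHDA. That call lies at the threshold and was lost, at -0.29, when the libraries were rescaled without the salivary gland secretory genes.

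Axin2 and Nkd1 are feedback inhibitors that β-catenin signaling is known to induce. Axin2 was at 6.66 FPKM in sorted control cells, 5.29 in sorted 6-OHDA cells, 1.53 in control colonies and 1.25 in SP colonies. Nkd1 was at 11.7, 8.70, 1.47 and 0.70 FPKM. Both were high in the sorted cells and low in the colonies, and in each pair the treated library held less. For Axin2 the log2 difference was -0.28 with 6-OHDA and -0.17 with SP, within the threshold as deposited, and -1.60 between the controls. With 6-OHDA Axin2 was called lower under 4 of the 6 other pseudocounts and scalings, at -0.34 after scaling by the median ratio. For Nkd1 it was -0.39 with 6-OHDA, -0.54 with SP and -2.36 between the controls. Relative to the median gene, the differences between the controls were -1.97 for Axin2 and -2.74 for Nkd1.

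Nkd2, the paralog of Nkd1 (NCBI Gene 72293, chr13:73818534-73847631), was low in the sorted cells and high in the colonies. It was at 7.32 FPKM in sorted control cells, 7.91 in sorted 6-OHDA cells, 149 in control colonies and 103 in SP colonies. Control colonies were 20.4-fold above sorted control cells, a log2 difference of 4.18, or 3.70 relative to the median gene, the largest of any member. Like Nkd1 it was lower with SP, at a log2 difference of -0.53.

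The TCF/LEF factors carry β-catenin to DNA. Tcf7, the most abundant of them, was at 29.3 FPKM in sorted control cells, 31.1 in sorted 6-OHDA cells, 18.7 in control colonies and 15.8 in SP colonies. Tcf7l1, often a repressor, was at 12.8, 11.8, 8.31 and 4.77 FPKM, and its log2 difference with SP was -0.69. Tcf7l2 was at 3.99, 4.75, 17.6 and 8.57 FPKM. Between the controls Tcf7l2 was higher in the colonies, while Tcf7 and Tcf7l1 were within the threshold as deposited, at log2 differences of -0.62 and -0.56. Each of the 3 held less in SP colonies than in control colonies, Tcf7 within the threshold at a log2 difference of -0.23. For Tcf7l2 the log2 difference was -0.95 with SP and 1.89 between the controls, or 1.45 relative to the median gene. Lef1 reached at most 0.22 FPKM. Sp5, a target gene of β-catenin, was at 0.15 and 0.10 FPKM in the sorted cells and listed at 0 in both colony libraries.

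The treatment comparisons have separate controls, and 33 members were compared in both. Wnt5b, Wnt7b, Fzd9 and Nkd1, 4 members, were lower in both, where 1.83% of the 10799 genes compared in both were. Nkd1 passed the filter with SP only through the control colonies, and its differences with a pseudocount of 5 were -0.29 with 6-OHDA and -0.18 with SP, within the threshold. With that pseudocount Wnt7b and Fzd9 were within the threshold with 6-OHDA as well, at -0.20 and -0.15. Wnt10a and Wnt11, 2 members, were lower with 6-OHDA and higher with SP, where 1.08% of all genes were. Fzd7 was higher with 6-OHDA and lower with SP, where 2.59% of all genes were, and 0 members were higher in both, where 2.83% of all genes were. Of the 9 members lower with 6-OHDA, 4 were lower and 2 higher with SP. Of the 14 lower with SP, 4 were lower with 6-OHDA. Among all genes, 981 were lower with 6-OHDA and 2351 with SP, whether or not compared in the other treatment. Of these, 198 were lower with both, and 117 were lower with 6-OHDA and higher with SP.

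Another 102 genes of the pathway, 97 of them in the files, were counted in the same way. With 6-OHDA 76 were compared, of which 11 were higher and 14 lower, with a median log2 difference of -0.03, where 15.8% of all genes were higher and 8.35% lower. The largest differences as deposited were those of Dkkl1, Prickle1 and Edar. Dkkl1, a Dickkopf-like gene, went from 2.02 to 0.93 FPKM (log2 difference -0.65). Dkkl1 passed the filter only through the sorted control cells, and its difference was within the threshold with the larger pseudocount, as given above. Prickle1, a planar polarity gene, went from 9.24 to 5.63 FPKM (-0.63). Edar, a receptor gene induced by Wnt signaling in skin, went from 2.88 to 1.54 FPKM (-0.61). With SP 69 were compared, of which 8 were higher and 17 lower, with a median of -0.16, where 11.7% of all genes were higher and 19.8% lower. Lgr5, an R-spondin receptor and stem cell marker, was at 20.1 FPKM in sorted control cells, 16.8 in sorted 6-OHDA cells, 48.7 in control colonies and 17.7 in SP colonies, a log2 difference of -1.41 with SP. Its relative Lgr6 was at 14.9, 16.9, 31.0 and 14.5 FPKM, a difference of -1.04 with SP. Lgr5 and Lgr6 were thus highest in control colonies. Between the controls their log2 differences were 1.24 and 1.01 as deposited, but 0.75 and 0.53, within the threshold, relative to the median gene. With 6-OHDA the log2 difference of Lgr5 was -0.25, within the threshold, or -0.304 relative to the median gene. That of Lgr6 was 0.17, or 0.12 relative to the median gene. Lgr4, another R-spondin receptor, named after its values were seen, was at 31.7, 41.3, 43.35 and 35.5 FPKM. The log2 difference of Lgr4 was 0.37 with 6-OHDA and, within the threshold, -0.28 with SP, or -0.31 with SP after rescaling to the same sum. The target gene Ccn4 went from 3.10 FPKM in control colonies to 0.76 in SP colonies (-1.22) and passed the filter only through the control colonies. The list of other target genes, which includes Ccn4, had 13 genes compared with SP, of which 4 were higher and 4 lower, with a median of 0.14. The 4 higher, named after their values were seen, were Ccnd1, Myc, Snai2 and Msx2, at log2 differences of 0.75, 0.67, 0.69 and 0.85. The 4 lower were Ccn4 and, likewise named afterwards, Ccn5, Id2 and Jun, at -0.70, -0.63 and -0.39.

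Between the controls 74 of these genes were compared, of which 15 were higher and 12 lower by more than 1, with a median of 0.18, where 30.7% of all genes were higher and 13.2% lower. Myc, a target gene in many tissues, was at 204 FPKM in sorted control cells, 181 in sorted 6-OHDA cells, 13.3 in control colonies and 21.6 in SP colonies. The log2 difference between the controls was -3.85, or -4.33 relative to the median gene. Sostdc1, which encodes a secreted inhibitor that binds Lrp6, was at 6.47, 4.97, 94.4 and 122 FPKM, a log2 difference between the controls of 3.67, or 3.20 relative to the median gene. Dact1, which encodes a partner of Dishevelled, was at 11.1, 7.22, 0.71 and 0.70 FPKM, at -2.83, or -3.16 relative to the median gene. Between the controls Dact1 passed the filter only through the sorted cells. Myc and Dact1 were thus high in both sorted libraries, and Sostdc1 in both colony libraries.

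TCF/LEF factors bind DNA at sites such as CTTTGAT and CTTTGAA. Both were searched on either strand in the 250 bases before the start of each gene, in RefSeq promoter windows of GRCm38.p6. Of the 17390 windows of genes in the files, 5.78% held such a site, and of all 32851 windows 7.48% did. Of the 36 windows that belong to 26 members, 3 held one, in Sp5, Wnt11 and Wnt5b. In 26 of the 36, among them these 3, a stretch just after the start was found in a GENCODE vM21 transcript of the gene on the same strand, and in the other windows it was not. Of the 20 members in the inhibitor, intracellular and transcription factor roles, 13 had a window. Sp5 was the 1 member of these that held a site, and its window, chr2:70474673-70474922 on the plus strand, is printed for this reason, with CTTTGAT in capitals at positions 147 to 153, beginning 104 bases before the start of the gene.
Sp5: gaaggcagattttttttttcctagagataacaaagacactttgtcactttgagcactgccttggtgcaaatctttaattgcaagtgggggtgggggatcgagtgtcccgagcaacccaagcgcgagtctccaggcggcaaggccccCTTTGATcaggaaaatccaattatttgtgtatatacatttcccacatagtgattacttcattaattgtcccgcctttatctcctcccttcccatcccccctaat
A match is a description of the letters alone, and Sp5 was at or near 0 in each library.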

How the data were processed

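RNA-seq was analysed for 4 libraries, 1 per condition, grouped by the labels. The authors deposited FPKM values for 17630 genes. The submitters' processing notes name Bowtie2, RSEM 1.3.1, DESeq2 1.4.5 and the build mm10, without saying what each was used for. RNA was extracted with RNAiso plus, and the protocol names a DNBSEQ mRNA library. FPKM divides by all fragments, so very abundant transcripts in 1 library lower every other gene there. FPKM values are not counts, so no count test was run, and p-values and fold changes of the authors were not used here.

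Gene numbers were matched to RefSeq genes of GRCm38.p6, the same assembly as mm10, and 17512 matched. The 118 unmatched genes stayed in the comparisons. Differences in log2(FPKM + 1) were taken where the libraries compared averaged at least 1 FPKM. The threshold was 0.3 for the treatments, after the legend of the study's volcano plot, and 1 between the controls. That legend also sets a limit on the adjusted p-value, which was not applied here, so these calls are not those of the study. All members called in any comparison, and the most abundant of each role, were given in every library. Of the other pathway genes, the 3 with the largest difference in each comparison were named. Myh11, Elf5 and the other marker genes named singly were chosen after their values were seen. The members and lists were chosen with earlier results of these data known.

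The depth was estimated by fitting FPKM times effective length to whole multiples of a common step, over 276 to 319 of 2302 genes with a single GENCODE vM21 transcript. Assumed fragment lengths from 150 to 300 bases gave 14.95 to 18.9 fragments per FPKM and kilobase, with scores from 0.29 to 0.54, where 1 is a perfect fit, and of at most 0.15 with shuffled lengths. Alternatives were pseudocounts of 0.1 and 5, no filter, a mean FPKM of at least 5, rescaling to the same sum with and without salivary gland secretory genes, scaling by the median ratio, quantile normalization and other thresholds. Counts and depth fits were tested on simulated data. Python 3.11.15, numpy 2.4.6, pandas 2.3.3 and matplotlib 3.10.9 were used.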

Additional observations from a re-analysis of the deposited data

How the results depend on the processing

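Of 624 member differences recomputed under alternatives, 548 moved by at most 0.3 and 0 of the called ones reversed. With 6-OHDA, 2 members were called higher, and 0 were with a pseudocount of 5, 4 with no filter on low values, 1 with a mean FPKM of at least 5, 1 after rescaling to the same sum, 1 after scaling by the median ratio, 0 after quantile normalization and 0 at a threshold of 1. The 9 called lower became 2 with a pseudocount of 5 and 0 at a threshold of 1. With SP, the 6 higher became 0 and the 14 lower became 3 at a threshold of 1. Between the controls, the 8 lower became 4 with a pseudocount of 5, 4 with a mean FPKM of at least 5, 13 after scaling by the median ratio and 15 at a threshold of 0.3. The median of the members there, 0.02, became 0.17 with a mean FPKM of at least 5, -0.13 after rescaling to the same sum, with or without the salivary gland secretory genes, -0.41 after scaling by the median ratio and -0.48 after quantile normalization. A larger pseudocount shrinks differences of low genes by construction, and a stricter filter leaves fewer members. Calls held under all 6 gene-level alternatives for 2 of 11 members with 6-OHDA, 16 of 20 with SP and 9 of 17 between the controls. No paired analysis was possible because each condition has 1 library. The spread between animals and between cultures is unknown, and low members rest on few fragments.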
